A study of Mus musculus with 6 samples.

Results

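The 10 genes described here encode the machinery that shows peptides from inside the cell on MHC class I molecules, and they were chosen by symbol from the 20494 gene rows of the table: the heavy chains H2-K1, H2-D1 and H2-T23, the light chain B2m, the peptide transporter subunits Tap1 and Tap2, the loading factor Tapbp, the immunoproteasome subunits Psmb8 and Psmb9, and the regulator Nlrc5. All 10 were found, each in 1 row, and all 10 had an adjusted p. Total RNA of the lung was sequenced in 6 libraries, 3 from lincRNA-Cox2 KO mice and 3 from wild type mice. All mice were C57BL/6 males, 4 months of age, and none had been treated. The gene removed, lincRNA-Cox2, makes a long noncoding RNA and lies beside Ptgs2, the gene of the inducible cyclooxygenase, and the labels do not give the extent of the deletion. The series title speaks of cis and trans control of immune genes, and the class I genes lie on other chromosomes than the deleted locus.

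Class I molecules sit on nearly all nucleated cells and are read by CD8 T cells and natural killer cells. Proteasomes cut proteins into peptides, the Tap1-Tap2 transporter carries these into the endoplasmic reticulum, tapasin (Tapbp) holds the heavy chain and B2m there until a peptide fits, and interferon replaces the standard catalytic subunits of the proteasome with Psmb8 and Psmb9. Nlrc5 enters the nucleus and raises class I transcription through a set of promoter elements called the S, X and Y boxes, while Ciita does the same for class II genes. In the lung, class I is found on epithelium, endothelium and leukocytes alike, so whole tissue RNA mixes all of these sources, and fewer cells of a type cannot be told apart from less RNA per cell.

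The promoters of 3 members are shown because they hold, at the same spacing, letters of the X2 and Y boxes, which belong to the elements named above. The S box and the rest of the X box were not searched, and action of Nlrc5 at these promoters was not tested. They are RefSeq sequences (GRCm38.p6, the assembly of mm10), 250 bases ending just before the annotated start, 5′ to 3′ on the gene's strand. For H2-K1 the stretch is chr17:34000348-34000597 on the minus strand, for H2-D1 chr17:35262844-35263093 on the plus strand, and for B2m chr2:122147437-122147686 on the plus strand. Capitals mark TGACG (the letters of the X2 box), CCAAT or its reverse ATTGG (the Y box), GGGNNTTCC (an NF-kB motif) and GAANNGAAA (an interferon regulatory factor motif), each searched on both strands.
H2-K1: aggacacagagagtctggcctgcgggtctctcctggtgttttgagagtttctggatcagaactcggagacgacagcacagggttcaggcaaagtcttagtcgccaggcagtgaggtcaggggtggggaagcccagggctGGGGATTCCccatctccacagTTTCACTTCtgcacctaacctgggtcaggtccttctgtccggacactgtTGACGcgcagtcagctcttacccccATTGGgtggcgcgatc
H2-D1: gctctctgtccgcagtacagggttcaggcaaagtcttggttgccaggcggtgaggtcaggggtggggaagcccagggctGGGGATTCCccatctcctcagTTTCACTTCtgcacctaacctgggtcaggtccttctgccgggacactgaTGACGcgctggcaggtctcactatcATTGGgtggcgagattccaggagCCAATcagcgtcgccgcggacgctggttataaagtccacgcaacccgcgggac
B2m: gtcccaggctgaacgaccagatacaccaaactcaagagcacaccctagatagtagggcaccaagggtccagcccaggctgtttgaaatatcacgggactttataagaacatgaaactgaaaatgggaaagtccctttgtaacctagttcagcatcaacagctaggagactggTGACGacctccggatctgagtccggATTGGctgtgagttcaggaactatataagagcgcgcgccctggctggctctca

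In all 3 promoters TGACG was followed, after exactly 20 bases, by ATTGG. This spaced pair was present in 3 of the 8 members matched in the RefSeq promoter table and in 30 of 32851 promoters of the same length (0.0913%), and its spacing was chosen after the sequences had been read. The pair lay between -41 and -12 in H2-K1, -101 and -72 in H2-D1 and -78 and -49 in B2m, counted back from the start. H2-K1 has another RefSeq start downstream, whose window is not shown. Counted from there the pair lay between -55 and -26, and a further CCAAT between -6 and -2. The NF-kB and interferon factor motifs stood side by side in H2-K1 and H2-D1, which also shared a run of 47 identical bases. The exact letters searched were in none of the other 6 members matched, against 4.98% and 6.31% of all promoters. Forms of these motifs with another spacing were not searched. B2m holds gaaactgaaa and gggaaagtccc, which resemble the 2 motifs but differ from the letters searched, so its lack of a match does not show that it lacks such elements. CCAAT was present in 7 of the 8 (33.8% of all promoters) and TGACG in 5 of the 8 (17.8%); every spaced pair contains 1 match to each. The RefSeq starts of Tap1 and Psmb9 lie 226 bases apart and face away from each other, so their windows overlap. The longer GENCODE models of the same genes meet. By the GENCODE models the windows of H2-D1, Tapbp, Psmb8 and Psmb9 lie wholly inside the gene, and that of H2-T23 partly. Tap2 and Nlrc5 were not matched. A match of letters is a description and not a measured binding site.

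**Figure D1:**
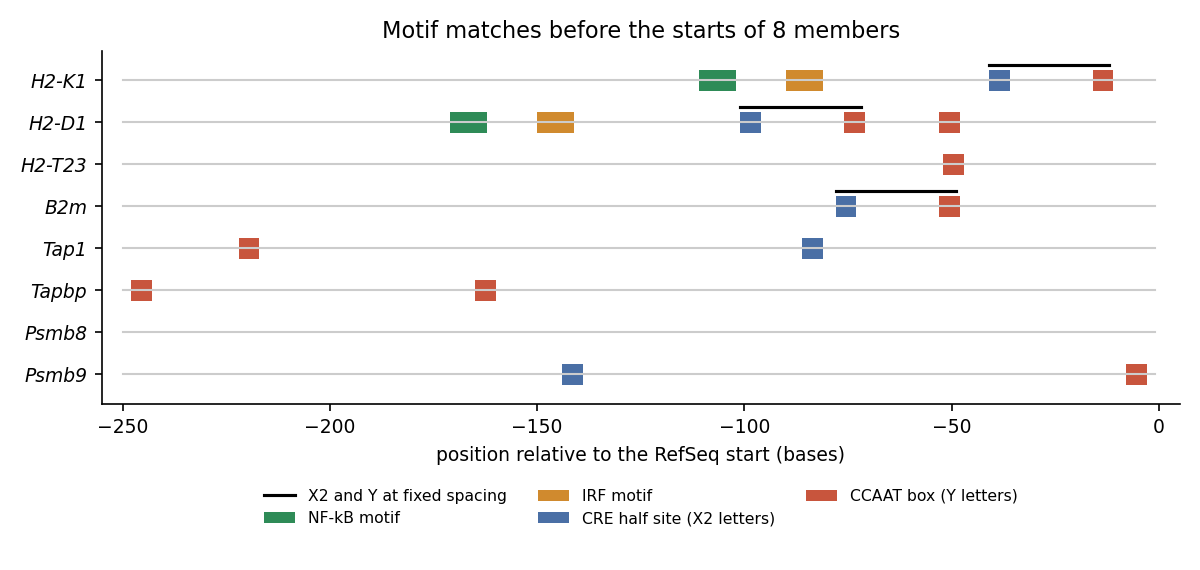
Matches to the motifs in the 250 bases before the RefSeq start of the 8 members matched, by position relative to the start (for H2-K1, the upstream one of its RefSeq starts). The black line marks the spaced pair of X2 and Y letters, seen in H2-K1, H2-D1 and B2m; in the legend, CRE stands for the cAMP response element, whose core the X2 letters are.

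Of the 10 members, 8 lie in the H2 complex of chromosome 17, between 33915899 (the start of Tapbp) and 36032855 (the end of H2-T23) in mm10 by GENCODE M21. H2-K1 (33996017 to 34000347, minus strand) and H2-D1 (35262730 to 35267499, plus strand) are 1262 kb apart. Psmb9 (34181987 to 34187764, minus), Tap1 (34187553 to 34197225, plus), Psmb8 (34197721 to 34201454, plus) and Tap2 (34203527 to 34216321, plus) follow each other within 34.3 kb, among the class II genes. B2m is on chromosome 2 (122147686 to 122153083, plus) and Nlrc5 on chromosome 8 (94434356 to 94527272, plus).

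The table gives 1 mean per genotype, so no value of a single library is available for any member. The lowest member alone has a wild type mean that 15714 different sets of reads in the 3 libraries would fit within its printed rounding. Each comparison therefore rests on the standard error and adjusted p of the authors' DESeq2 comparison, in which called means an adjusted p under 0.05. The size factors of the 6 libraries, read from the means of rows with a single read, ran from 0.961 to 1.03, and the means summed to 3.71e+07 in wild type and 3.68e+07 in knockout. LincRNA-Cox2 (listed as Lincrna-cox2) had a mean of 311 normalized counts in wild type and fell to 0.666 in the knockout in the authors' deposited table (adjusted p = 4.05e-91), which checks the genotype labels. The alveolar marker Sftpc stood at 82187 and 83359 normalized counts in wild type and knockout there, and Ager, of the alveolar type 1 cell, at 40897 and 40243.

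Class I genes were among the abundant transcripts of the lung. Together the 10 members took 0.264% of all normalized counts in wild type and 0.273% in knockout. H2-D1, H2-K1 and B2m ranked 66, 109 and 169 by mean among the 16902 rows with an adjusted p, while Nlrc5 stood near the middle, at rank 7639. Per kb of exon, a scale that allows for the length of each gene, B2m was highest in wild type at 21548 normalized counts. H2-D1 and H2-K1 followed at 13621 and 13522 per kb, so that the 2 heavy chains together came to 1.26 times B2m per kb in wild type and 1.31 times in knockout. Their order changed with the length used for H2-K1, which gave 13823 per kb over its longest principal transcript. The spread between libraries is not known for levels. Lengths are those of GENCODE models, and the gene models that were counted may differ from these. The heavy chains share sequence with other genes, as given below, and B2m does not, which could alter their ratio.

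H2-T23, the heavy chain of the nonclassical molecule Qa-1, had 4480 normalized counts per kb in wild type, 0.331 times H2-K1. Tapbp came next at 3225, then Psmb8 at 1881, Psmb9 at 1218, Tap2 at 1173 and Tap1 at 938 per kb. Nlrc5 was lowest at 134 per kb, and B2m exceeded it 161-fold per kb in wild type and 151-fold in knockout. In the knockout the order of the 10 members per kb was the same.

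**Figure D2:**
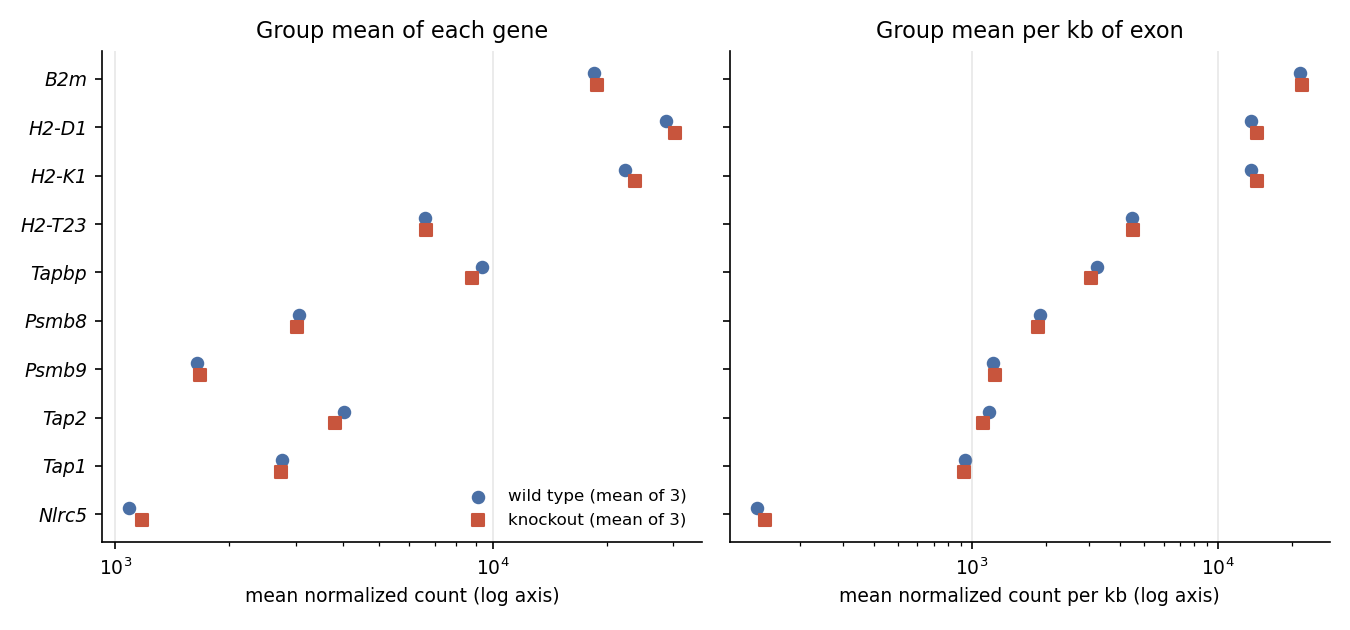
Mean normalized count of each member (left) and the same per kb of exon (right) in wild type and knockout, each point the mean of 3 libraries, on log axes. The levels span from 1088 (Nlrc5) to 28631 (H2-D1) in wild type, and for every member the 2 genotypes lie close together.

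No difference between the genotypes was detected for any of the 10 members. By the authors' deposited table, 0 of 10 were called, where 1.09% of all 16902 rows tested were called, and 0 of 10 had an unadjusted p under 0.05, where 8.47% of all rows did. The lowest adjusted p among them was 0.839, for Tapbp. The median log2 ratio of knockout over wild type was 0.02 over the members and -0.0013 over all rows tested, with 6 members above and 4 below their wild type mean. All ratios of the members lay between -0.09 and 0.11 on the log2 scale.

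The classical heavy chains had nearly the same small difference. H2-K1, which presents peptides to CD8 T cells, had means of 22379 normalized counts in wild type and 23683 in knockout in the authors' deposited table, 1.06-fold higher (shrunken log2 fold change 0.07 ± 0.062 (SE), adjusted p = 0.923). H2-D1, the other classical heavy chain of this strain, stood at 28631 and 30239 there (0.07 ± 0.060, adjusted p = 0.919). The ratio of the means of H2-D1 and H2-K1 was 1.28 in both genotypes. H2-T23 was at 6595 in wild type and 6661 in knockout (0.01 ± 0.063, adjusted p = 0.997 in the authors' deposited table).

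B2m, the light chain that every class I heavy chain needs to reach the surface, had 18531 and 18890 normalized counts in the authors' deposited table (0.02 ± 0.061, adjusted p = 0.997). With the prior of the authors' shrinkage removed, its fold of knockout over wild type was 1.02 with a 95% interval from 0.924 to 1.12. The corresponding intervals were 0.956 to 1.17 for H2-K1, 0.959 to 1.16 for H2-D1 and 0.912 to 1.12 for H2-T23. These intervals bound the size of a difference and do not show that the genotypes were equal.

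The peptide transporter and its partner were at or just below their wild type means. Tap1 had 2770 and 2751 normalized counts in wild type and knockout in the authors' deposited table (-0.01 ± 0.063, adjusted p = 0.997), and Tap2 had 4038 and 3812 (-0.07 ± 0.062, adjusted p = 0.915). Tapbp was at 9345 in wild type and 8808 in knockout there, 1.06-fold lower (-0.08 ± 0.054, adjusted p = 0.839). Its 95% interval, 0.868 to 1.02, was the narrowest of the members. Those of Tap1 and Tap2 were 0.895 to 1.10 and 0.853 to 1.04.

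Both immunoproteasome subunits had ratios close to 1. Psmb8, the chymotrypsin-like subunit, was at 3063 in wild type and 3030 in knockout by the authors' deposited table (-0.01 ± 0.068, adjusted p = 0.997; 95% interval of the fold 0.882 to 1.11). Psmb9 had 1647 and 1680 there (0.02 ± 0.066, adjusted p = 0.997; interval 0.914 to 1.14). Each replaces a standard subunit, and the ratio of the means, not corrected for length and so read only between genotypes, was 1.34 and 1.32 for Psmb8 over Psmb5 and 0.551 and 0.561 for Psmb9 over Psmb6 in wild type and knockout. For Psmb10 over Psmb7, the remaining pair, it was 0.711 and 0.723.

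Nlrc5, the class I transactivator, had 1088 normalized counts in wild type and 1178 in knockout in the authors' deposited table (0.08 ± 0.080, adjusted p = 0.948). Its 1.08-fold ratio was the highest of the members and also the least certain, with a 95% interval from 0.921 to 1.27. The fitted error of Nlrc5 corresponds to a coefficient of variation of about 10.1% between libraries of a genotype, against 5.13% for Tapbp and between 6.01% and 7.16% for the other 8. Of the 500 genes nearest to each member in mean, between 52.8% (Tapbp) and 95.8% (Nlrc5) had a smaller standard error than the member.

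The smallest differences that could have been called follow from these errors. The weakest call in the table had an absolute Wald statistic of 3.48. At that statistic Tapbp would have needed a fold of 1.16, H2-D1 1.19, B2m 1.19, Psmb9 1.21, Psmb8 1.23 and Nlrc5 1.33. Smaller changes of these genes would not have been called.

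**Figure D3:**
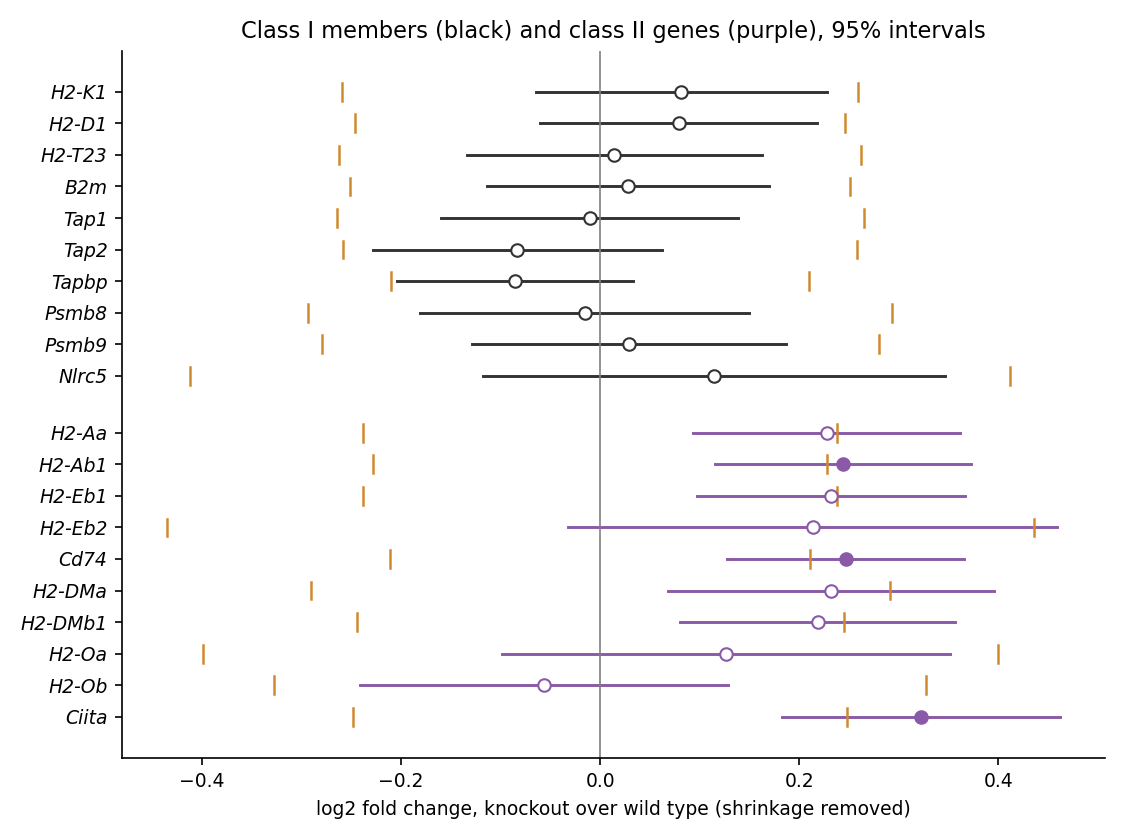
Change in the knockout on the log2 scale with the prior removed, and its 95% interval, for the 10 members (black) and 10 class II genes (purple); filled points are called, and orange ticks mark the smallest change that would have been called for that gene. The intervals of all 10 members include 0, while those of 7 of the 10 class II genes lie above it.

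Reads of some members may be split with other genes, which limits how exactly each row stands for its gene. Of all 50-base windows of the H2-T23 transcript, 29.8% occur identically in a transcript of another gene in GENCODE M21, with the pseudogene H2-T-ps and H2-Q1 sharing the most. For H2-D1 the share was 14.3%, with H2-Q1 first, and for H2-K1 it was 8.79%, with H2-D1 first. Psmb9 shared 12.5% of its windows, all of them with Tap1. Tap1 shared 6.47%, made up of 5.61% with Psmb9 and the rest with Tap2 and Gm15821. Psmb9 and Tap1 overlap on opposite strands by 212 bases at their starts. The kit named in the labels does not mark strand, so read pairs lying wholly in that overlap cannot be assigned to either gene. Tapbp shared 599 of 2849 windows, most of them with Gm19412, Tap2 12.6%, Psmb8 5.83%, and B2m and Nlrc5 shared none. These shares are of single windows, while reads came in pairs, so the share of pairs that cannot be placed may be lower.

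The other genes of the class I route were described by lists drawn up from textbook knowledge, with earlier results of these data known. Among 16 tested class I and class I-like heavy chains outside the members, 1 was called, H2-M2, a nonclassical gene of the H2-M cluster. Its mean was 43.2 normalized counts in wild type and rose to 99.8 in the knockout by the authors' deposited table (2.31-fold, shrunken log2 fold change 0.34 ± 0.077, adjusted p = 0.00209). The lipid-presenting Cd1d2 and Cd1d1 had folds of 0.674 and 0.875 (adjusted p = 0.259 and adjusted p = 0.465 in the authors' deposited table), Fcgrt, the neonatal Fc receptor, 0.907 and Mr1, which presents vitamin B metabolites, 1.11. At an unadjusted p under 0.05 stood 6 of the 16, 3 higher and 3 lower, and the median log2 ratio of the list was 0.05. H2-Q6, H2-Q8, H2-Q9 and H2-T10 were not matched by symbol, and H2-T3 had no adjusted p.

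Of 15 other genes of loading and peptide trimming none was called, with 1 at an unadjusted p under 0.05 and a median log2 ratio of 0.03. That gene was Lnpep, an aminopeptidase of endosomal cross-presentation, at 3186 normalized counts in wild type and 4004 in knockout by the authors' deposited table (1.26-fold, adjusted p = 0.134). Erap1, which trims peptides in the endoplasmic reticulum, had a fold of 1.10 (adjusted p = 0.631), Pdia3, the oxidoreductase that works beside tapasin, 1.05, and Tpp2 1.06 in the same deposited table of the authors. By group means 13 of the 15 were above wild type and 2 below.

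The remaining immunoproteasome genes are the subunit Psmb10, the PA28 activator and the assembly factor Pomp. None of the 5 passed either the adjusted test or an unadjusted p under 0.05, with Psmb10, Psme2, Pomp and Psme2b at folds of 1.01, 0.992, 0.973 and 1.10 in the authors' deposited table. The 14 subunits of the standard 20S proteasome gave the same counts, 0 and 0, with a median log2 ratio of -0.0031. Psma1 had the lowest adjusted p of these (1.09-fold, adjusted p = 0.728 in the authors' deposited table).

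Among 24 factors that bind class I promoters or carry interferon signals, 0 were called and 0 had an unadjusted p under 0.05. Their median log2 ratio was -0.0037 and all lay between -0.13 and 0.13. Irf2, a repressor and activator of interferon response elements, had a fold of 0.936, Stat2 0.915, Irf8 0.913 and Jak2 1.07 in the authors' deposited table, the lowest adjusted p being 0.720. Of 24 tested interferon-induced genes outside the class I route 1 was called, Rsad2, an antiviral enzyme, at 271 and 424 normalized counts there (1.56-fold, adjusted p = 0.0209). The list's median was -0.05, with 16 of 24 below wild type, and Ifit1 had a fold of 0.798 (adjusted p = 0.277), Ifi47 1.17, Rtp4 0.885 and Cxcl10 0.746 in the authors' deposited table.

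Class II genes, the set most like the members in function, present peptides from outside the cell to CD4 T cells. Of 10 tested class II genes 3 were called, all higher in knockout, and 7 had an unadjusted p under 0.05, all higher. Ciita, the class II counterpart of Nlrc5, rose to 2374 normalized counts from a wild type mean of 1899 by the authors' deposited table (1.25-fold, adjusted p = 0.00166). Cd74, the invariant chain, rose 1.19-fold and H2-Ab1 1.18-fold there (adjusted p = 0.00858 and adjusted p = 0.0235). H2-Eb1, H2-Aa, H2-DMb1 and H2-DMa had folds of 1.17, 1.17, 1.16 and 1.17 with adjusted p-values from 0.0573 to 0.205 in the authors' deposited table. The median log2 ratio was 0.23 for class II against 0.02 for the class I members. The difference between the sets was not tested, since the table holds no library values from which to test it. Side by side, the 95% interval of Ciita was 1.13 to 1.38 and that of Nlrc5 0.921 to 1.27, and these overlap. That of Cd74 was 1.09 to 1.29 and overlapped that of B2m, 0.924 to 1.12. Those of Tapbp (0.868 to 1.02) and Tap2 (0.853 to 1.04) lay wholly below those of Ciita, Cd74 and H2-Ab1 (1.08 to 1.29). Whether intervals overlap is a description and not a test of the difference.

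**Figure D4:**
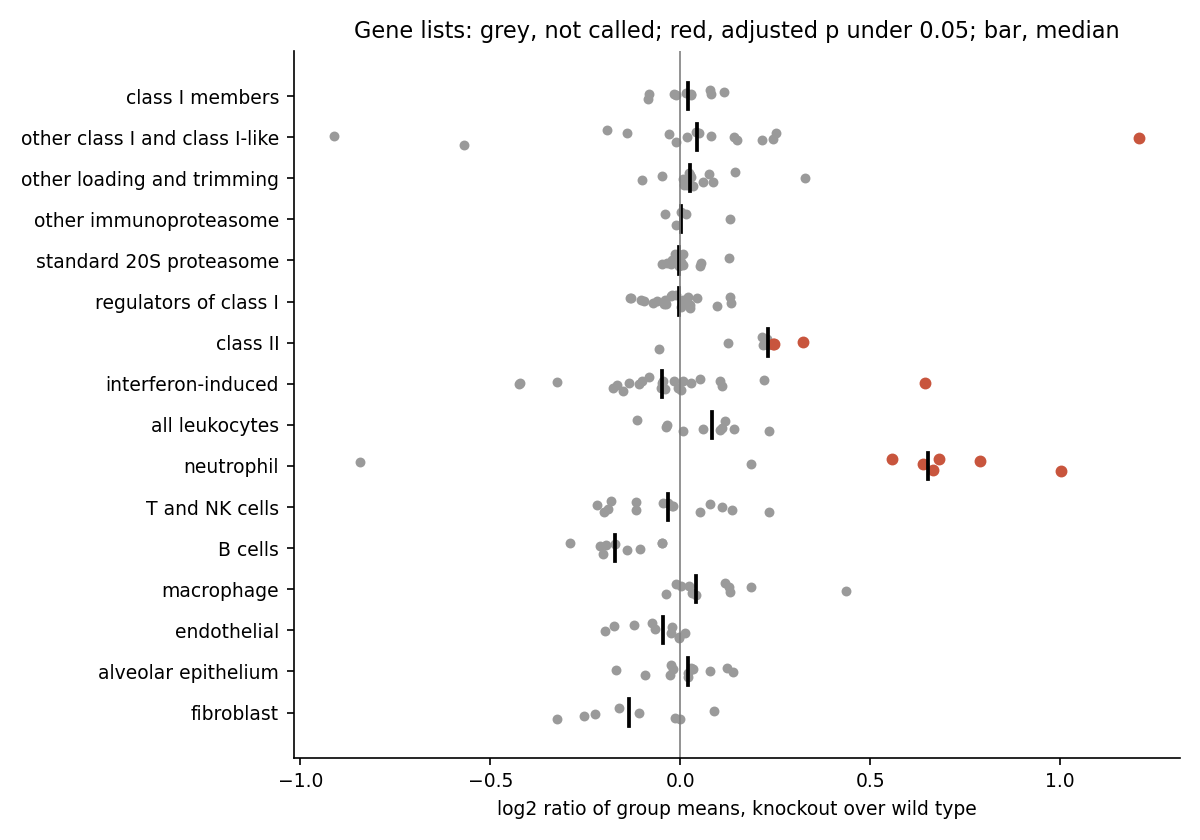
Log2 ratio of the group means, knockout over wild type, for each tested gene of the members, the 7 other pathway lists and the 8 cell type lists; red points are called and the black bar is the list's median. The members span -0.09 to 0.11 around a median of 0.02, and class II has a median of 0.23.

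The position of the genes was compared with their change, since class I and class II genes are interleaved on chromosome 17. In the 2.12 Mb from Tapbp to H2-T23, 115 genes were tested, 8 of them members, and 1 was called, H2-Ab1. Over all rows tested, 1.09% were called. The 107 others had a median log2 ratio of -0.02, with 46 above and 61 below their wild type mean. Psmb9, Tap1, Psmb8 and Tap2, at log2 ratios of 0.03, -0.01, -0.02 and -0.08, lie between the class II genes H2-DMb1 (0.22) and H2-Ob (-0.06), at 153 kb and 239 kb from the start of H2-K1. H2-Ab1 (0.24), the called gene, follows H2-Ob at 257 kb. Of the class II genes tested in this stretch, H2-Ob alone was below its wild type mean (adjusted p = 0.994 in the authors' DESeq2 comparison). H2-DMa, H2-Aa and H2-Eb1, not called, were at 0.23 each.

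**Figure D5:**
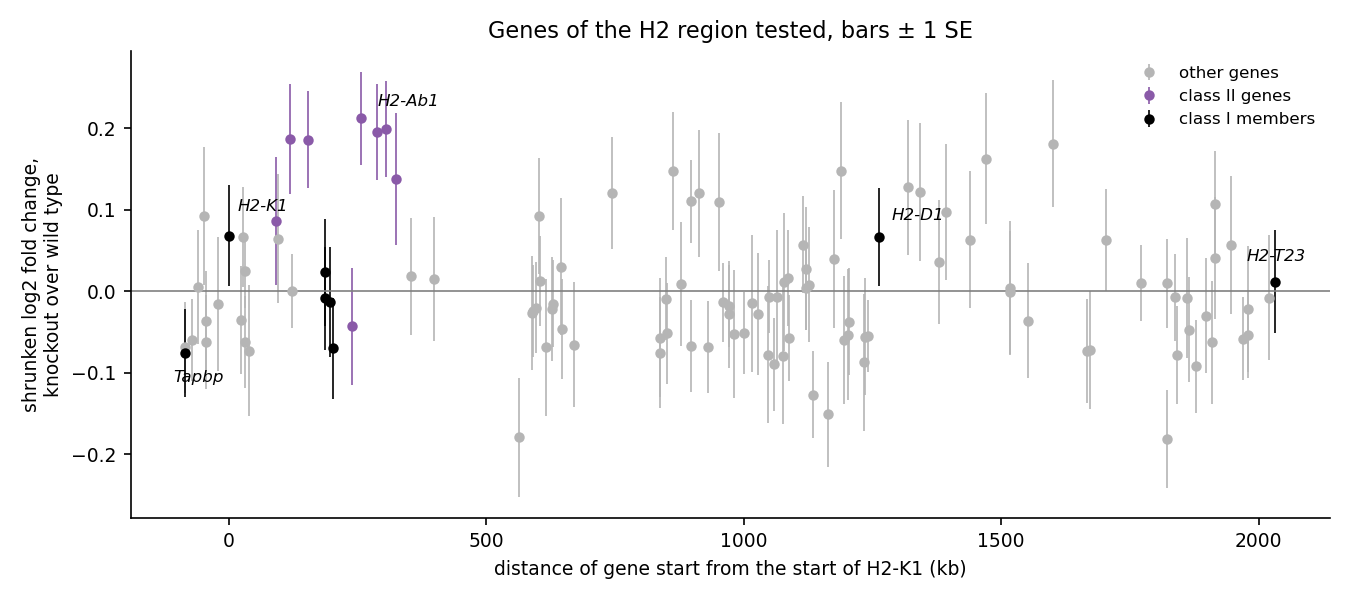
Shrunken log2 fold change in the knockout, from the authors' deposited table (bars ± 1 SE), against the distance of each gene's start from that of H2-K1, for the 115 genes tested between Tapbp and H2-T23. Members (black) stay between -0.08 and 0.07, and the class II genes (purple) run from -0.04 (H2-Ob) and 0.09 (H2-Oa) to 0.21 (H2-Ab1).

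Markers of the cell types that carry class I were read beside these values. Of 10 genes shared by all leukocytes none was called and 3 had an unadjusted p under 0.05, all higher, and their summed mean was 52925 normalized counts in wild type against 55402 in knockout. Neutrophil markers rose: 6 of the 8 tested were called, all higher, led by Csf3r (1.60-fold, adjusted p = 1.05e-11), Cxcr2 (means of 365 and 732) and S100a9 (1.73-fold) in the authors' deposited table, with S100a8, Retnlg and Mmp8 at 1.59-fold, 1.56-fold and 1.47-fold. The 2 tested but not called were Mmp9, at 1073 and 1220, and Ltf, the granule protein lactoferrin, at 2449 in wild type and 1366 in knockout by the authors' deposited table (adjusted p = 0.787 and adjusted p = 0.885). The summed mean of the 11 neutrophil genes found was 10192 in wild type and 13595 in knockout. Neither genotype mean was at 0 for any neutrophil gene found, Ly6g and Elane were not matched by symbol, and the granule genes Camp, Ngp and Mpo had knockout means of 1.97, 14.3 and 0.977 and no adjusted p. No gene of the other 6 marker lists was called. An unadjusted p under 0.05 was reached by 4 of 9 B cell genes and 2 of 15 T and natural killer cell genes, all lower, and by 2 of 11 macrophage genes, both higher. It was reached by 1 of 10 endothelial genes, lower, 2 of 12 alveolar genes, 1 each way, and 0 of 8 fibroblast genes. The summed means of wild type and knockout were 6784 and 6593 for T and natural killer cells, 10838 and 9795 for B cells, and 37188 and 39662 for macrophages. They were 179687 and 171295 for endothelium, 441617 and 450327 for alveolar epithelium, and 64410 and 59831 for fibroblasts. The part of any of these cell types in the level of class I genes was not tested.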

How the data were processed

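The series holds 6 RNA libraries from whole lung, 3 per genotype. Per the labels' protocols, 500 ng of total RNA went into the TruSeq v2 kit and pairs of 50 bp were sequenced. DESeq2, STAR 2.5.1b, bedtools, Bowtie2, SAMtools and mm10 are listed without roles, per the submitters' processing notes, and the counting rule is not given in the sources used here.

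The authors deposited 1 table. Its means are a signal, normalized counts averaged over the libraries of a genotype, per the file headers. The deposited log2 fold change is a maximum a posteriori estimate, shrunken towards 0, with its standard error. The deposited Wald statistic, a score, its p-value and the adjusted p belong to the authors' DESeq2 comparison, which was used as the test. Of 20494 rows, 16902 had an adjusted p, the lowest at a mean of 12.8. The precision of a value is that of its deposited standard error.

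No count test was run, since reads of single libraries cannot be derived for the members. Folds are ratios of the deposited means, knockout over wild type. The prior of the shrinkage, of width 0.169 (2 times the largest standard error), was removed to give 95% intervals. The result differed from the log2 ratio of means by a median of 1.04e-04 over 10690 genes. These had a mean of at least 500 and a fold of less than 2 in either direction. The largest difference among the members was 5.54e-04. The removal assumes a well measured gene, and noisier genes can depart from their ratio by more. Level per kb used the exons of all coding transcripts in GENCODE M21 basic. Of 214 list entries 205 were found, 3 of them by a RefSeq synonym, and 201 tested. The removal of the prior, on well measured genes only, and the adjustment of p-values were tested on simulated data (Python 3.11.15, numpy 2.4.6, pandas 2.3.3). The other steps were not tested in this way.

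The members and lists were chosen with earlier results of these data known. The text names all members, the called genes of each list and, for pathway lists, up to 4 more with the lowest p. Outside this rule are the tissue markers Sftpc and Ager, the proteasome subunits set in pairs and the neutrophil genes not called. Also outside it are genes named for their position or promoter, and H2-M5, C2, Cfb and C4b, named for their ratios. The labels do not say that each library is a separate animal, so p-values measure the spread between these libraries, which may be technical.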

Additional observations from a re-analysis of the deposited data

How the results depend on the processing

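None of the 10 members was called under any setting run: the adjusted p at 0.05, the adjustment over every row with a p, a threshold of 0.1, and an unadjusted p under 0.05. Over all genes the 184 called rows became 300 at a threshold of 0.1 and 1431 at an unadjusted p under 0.05. At an unadjusted p under 0.05 the called genes of the pathway lists went from 5 to 17 and those of the cell type lists from 6 to 20. The other 51 of 55 alternative values kept their direction and call, or moved by less than their error or 1.5 times. Among them were all log2 changes of single members with the shrunken estimate, the prior removed, or centred on the median of all rows tested. That median, -0.0013, was subtracted, which raised each ratio slightly. The settings with the prior removed or centred and the longest principal transcript were chosen after seeing the data. Most of the 55 values could hardly have moved. The settings for the log2 change of a member re-express the same genotype means, and for most members both choices of length were equal. With only members at a mean of at least 50 the median log2 ratio stayed 0.02, since all 10 pass. edgeR with or without its own count filter, a rerun of DESeq2, TMM scaling and leaving out single libraries were not run, since they need reads of libraries, and no member stood in more than 1 row. The size of difference that could be called, from 1.16-fold to 1.33-fold, limits what the calls can say of the members.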

Other observations

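The spaced pair of X2 and Y letters found in H2-K1, H2-D1 and B2m occurred before the starts of 26 genes in the RefSeq promoter table, 22 of which had an adjusted p. Among them was H2-M3, a nonclassical class I heavy chain that presents formylated peptides, at 1030 normalized counts in wild type and 1059 in knockout by the authors' deposited table (adjusted p = 0.997). The 1 called gene of the 22 was Kcnq1ot1, an imprinted antisense RNA, which fell from 447 to 331 normalized counts there (adjusted p = 0.0248), and it was named after its value was seen.

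Within the nonclassical class I list the largest ratios in both directions came from genes of low level. H2-M2 had a wild type mean of 43.2 normalized counts, and H2-M5, named after its value was seen, was at 24.9 in wild type and 13.2 in knockout by the authors' deposited table (adjusted p = 0.617).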
